A study of Homo sapiens with 4 samples.

Results

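The genes of NAD synthesis and consumption were examined by RNA-seq in untreated HaCaT cells, a spontaneously immortalised line of human epidermal keratinocytes. The 10 genes are NAMPT, NMNAT1, NMNAT2, NMNAT3, QPRT, NADSYN1, NADK, NNMT, CD38 and BST1, a set of NAD enzymes taken from the files by symbol. All 10 were found among the 19233 protein-coding genes and the 44591 genes of the files. The series has 4 biological replicates of a single condition, grown at 37 °C and 5% CO2 in Dulbecco's modified Eagle medium with 12% fetal bovine serum according to the labels, and nothing was added to the cells. The methods of the paper give 10% serum for this line. The line carries its own immortalising changes, so it stands for keratinocytes only as a model. The study used these libraries to rank the sirtuins, which are deacetylases that spend NAD, and the genes that make and use this cofactor were measured in the same cells.

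NAD is made along several routes that meet at the same dinucleotide. NAMPT joins nicotinamide, the product that sirtuins and poly(ADP-ribose) polymerases (PARPs) release, to phosphoribose and so returns it to the pool, while NAPRT does the same for nicotinate and QPRT for quinolinate, the end product of tryptophan breakdown. The NMNAT enzymes then add the adenylyl group, NMNAT1 in the nucleus, NMNAT2 at the Golgi and in the cytosol and NMNAT3 in mitochondria. NADSYN1 amidates the acid form on the routes from nicotinate and tryptophan, NADK phosphorylates NAD to NADP, NNMT methylates nicotinamide and removes it from salvage, and CD38 and BST1 (CD157) are surface enzymes that cleave NAD. In skin, NAD metabolism is known for its part in DNA repair after ultraviolet light, and lack of nicotinate and tryptophan causes the dermatitis of pellagra.

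The level of each gene is given in transcripts per 1000000 (TPM), the reads counted on a gene divided by its length and scaled to 1000000 over the protein-coding genes of each replicate. Counted reads on all genes numbered 73082279 in replicate 1 and 17056035 to 19745170 in the other replicates. Protein-coding genes took 76.1% of them in replicate 1 and 95.3% to 96.4% in the others. Replicate 1 stood apart before any single gene was considered. Across the 12165 protein-coding genes with a mean TPM above 1, its Spearman correlation with the other replicates was 0.754 to 0.780, against 0.944 to 0.967 among replicates 2 to 4, as a description across genes. The keratinocyte label was met by all 8 epidermal markers fixed for the check, among them KRT14 with 6375 to 7642 TPM and KRT5 with 1920 to 5396 TPM. Of 7 fibroblast, 7 leukocyte, 4 melanocyte and 3 endothelial markers, 2, 1, 1 and 0 had a mean TPM above 1.

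To show the regulatory sequence beside the levels, the 250 bases before the transcription start are printed for a pair of genes with abundant RNA, NAMPT and NADSYN1, and for a pair with hardly any, QPRT and CD38. The sequences are those of RefSeq on GRCh38.p14, 5′ to 3′ on the strand of the gene, and every CG dinucleotide is in capitals. The NAMPT window is chr7:106284984-106285233 on the minus strand, the NADSYN1 window chr11:71452953-71453202, the QPRT window chr16:29678930-29679179, at the first of its 2 RefSeq starts, and the CD38 window chr4:15778078-15778327, the last 3 on the plus strand.
NAMPT: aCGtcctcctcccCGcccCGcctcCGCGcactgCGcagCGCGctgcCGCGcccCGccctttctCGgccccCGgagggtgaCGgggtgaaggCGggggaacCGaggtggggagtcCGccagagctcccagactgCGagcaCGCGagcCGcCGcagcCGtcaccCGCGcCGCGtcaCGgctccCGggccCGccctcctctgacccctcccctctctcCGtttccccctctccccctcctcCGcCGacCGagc
NADSYN1: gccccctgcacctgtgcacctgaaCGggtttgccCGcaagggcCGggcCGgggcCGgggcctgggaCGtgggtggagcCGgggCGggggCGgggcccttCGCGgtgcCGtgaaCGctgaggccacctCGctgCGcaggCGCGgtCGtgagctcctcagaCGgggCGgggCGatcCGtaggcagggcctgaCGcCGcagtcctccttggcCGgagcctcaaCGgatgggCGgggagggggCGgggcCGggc
QPRT: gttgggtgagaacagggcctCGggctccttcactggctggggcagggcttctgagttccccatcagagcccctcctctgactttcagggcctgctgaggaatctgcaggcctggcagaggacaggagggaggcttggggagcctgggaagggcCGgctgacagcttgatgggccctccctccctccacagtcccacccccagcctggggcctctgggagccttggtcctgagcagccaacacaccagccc
CD38: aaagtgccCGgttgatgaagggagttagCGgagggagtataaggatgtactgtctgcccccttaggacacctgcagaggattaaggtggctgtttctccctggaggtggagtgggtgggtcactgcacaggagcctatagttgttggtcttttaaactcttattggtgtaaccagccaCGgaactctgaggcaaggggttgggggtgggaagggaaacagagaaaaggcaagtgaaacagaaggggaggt
The NAMPT window held 34 CG dinucleotides and the NADSYN1 window 29, against 2 for QPRT and 3 for CD38. CG, which reads the same on both strands, was present in 96.8% of 20534 such windows of 14511 protein-coding genes, with a median of 17 per window. Windows with no more CG than NAMPT and NADSYN1 made up 92.7% and 84.2% of all windows, and those with no more than QPRT and CD38 13.7% and 18.1%. The ratio of observed to expected CG was 0.976 for NAMPT, 0.795 for NADSYN1, 0.0726 for QPRT and 0.206 for CD38, with a median of 0.717 over all windows. RefSeq windows were found for 8 of the 10 genes. NMNAT1 had 21 CG dinucleotides, the starts of NMNAT2 15 and 4, those of NMNAT3 14 and 8 and those of NADK 6, 29 and 5. The second QPRT start had 1. CG content is a description of these letters, and methylation was not measured.

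HaCaT keratinocytes held abundant RNA for NADSYN1, NAMPT and NADK, low levels of the 3 NMNAT genes and NNMT, and almost none for QPRT, BST1 and CD38. With a mean TPM above 1 taken as detected, 7 of the 10 genes were detected, while 63.3% of all protein-coding genes passed the same mark. NADSYN1 stood at percentile 89.6 of all protein-coding genes by its mean TPM, NAMPT at 85.3, NADK at 75.4, NMNAT1 at 50.7 and NMNAT3 at 37.0. The plot of the 10 genes shows the drop from one group of levels to the next.

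**Figure D1:**
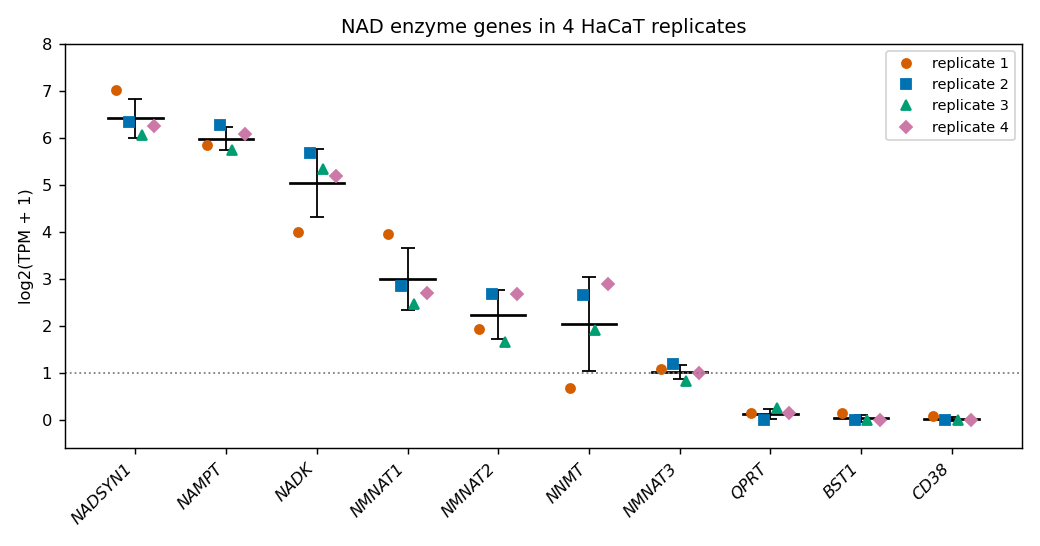
Level of the 10 NAD genes on the log2(TPM + 1) scale (vertical axis) in each of 4 replicates (points), with the mean (horizontal bar) and SD (error bar) and a dotted line at 1 TPM. NADSYN1, NAMPT and NADK lie at the top in each replicate, and QPRT, BST1 and CD38 lie near 0.

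NAMPT, the rate-limiting enzyme of nicotinamide salvage (chromosome 7, 105888731 to 105925638, minus strand, hg19 as are all gene positions here), had 56.4, 77.0, 52.5 and 66.5 TPM in replicates 1 to 4. Its mean of 63.1 ± 10.95 TPM (SD, n = 4) rested on 2164 to 6282 counts. Its coefficient of variation, 17.4%, was the lowest among the 7 detected genes, and replicate 1 lay inside the range of the others. This steadiness depended on the scaling, since with TPM over all genes replicate 1 had 17.5 TPM of NAMPT against 45.95 to 68.2 TPM elsewhere, for a coefficient of variation of 46.8%. Over protein-coding genes the SD of its log2(TPM + 1) was 0.24, at percentile 12.5 of the detected protein-coding genes. A processed copy, the pseudogene NAMPTP1, took 71 to 245 counts, 3.03% to 4.83% of the reads of both, and reads that fit either locus could have been divided between them.

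NADSYN1, the amidase that completes NAD from the acid precursors (chromosome 11, 71164217 to 71212584), had 129, 80.5, 66.1 and 75.5 TPM in replicates 1 to 4. The mean was 87.8 ± 28.2 TPM (SD, n = 4), and replicate 1 was the highest. NADSYN1 was first of the 10 genes in each replicate and NAMPT second. The difference between them, 0.44 ± 0.51 (SD, n = 4) on the log2(TPM + 1) scale, was within the spread between replicates. It also turned with the gene length, since the deposited NADSYN1 length is 2433 bp and the union of its exons in GENCODE release 29 is 16263 bp. With the union length for every gene, a setting chosen after seeing the data, the difference was -1.27 ± 0.49 (SD, n = 4).

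The enzymes that open each route were not equal. NAPRT, which starts the route from nicotinate, had 106, 188, 166 and 174 TPM in replicates 1 to 4, a mean of 158 ± 36.1 TPM (SD, n = 4). It exceeded NAMPT in 4 of 4 replicates, and NAMPT minus NAPRT was -1.30 ± 0.31 (SD, n = 4) on the log2(TPM + 1) scale. An exact permutation test that flips the sign of each replicate, two-sided, gave p = 0.125, the smallest that 4 replicates allow, and an adjusted p of 0.15 over the 6 contrasts tested, so no contrast of this design can pass 0.05. The labels do not say that the replicates came from separate cultures. With 4 differences of equal sign the permutation test gives p = 0.125 whatever their spread, so it records only that the signs agree among these samples. Per kilobase, NAMPT had 0.533 times the reads of NAPRT in replicate 1 (95% Clopper-Pearson interval 0.513 to 0.554), and in the others the ratio ran from 0.316 (0.298 to 0.334) up to 0.410 (0.386 to 0.435). NAPRT was thus higher in every library beyond counting error, which is all these intervals cover. Without length correction NAMPT minus NAPRT was 0.12 ± 0.31 (SD, n = 4), where the deposited lengths are 4582 bp for NAMPT and 1703 bp for NAPRT. An antisense gene over NAPRT took 26 counts in replicate 1 and 278 to 299 in the others, and the strand setting of the counting is not given in the sources used here.

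NMRK1, the kinase that brings in nicotinamide riboside, had 96.7 TPM in replicate 1 and 20.9, 10.7 and 17.9 TPM in replicates 2 to 4. NMRK2, the muscle form, had 1 count in all. Of the summed TPM of NAPRT, NAMPT, NMRK1, NMRK2 and QPRT, NAPRT took 40.9% in replicate 1 and 65.7% to 72.4% in the others. NAMPT took 21.8%, 26.9%, 22.9% and 25.7%, a share that differed little between the replicates. The sum itself was 258 ± 22.8 TPM (SD, n = 4). NMRK1 exceeded NAMPT 1.71 times in replicate 1 and was 0.203 to 0.272 times NAMPT in the others, so their order was not shared by the replicates. NAPRT was the highest of these entry enzymes in each replicate.

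The route from tryptophan was the least complete at the RNA level. QPRT, which turns quinolinate into the mononucleotide (chromosome 16, 29690329 to 29710020), had 6, 0, 4 and 2 counts in replicates 1 to 4. In TPM these are 0.104, 0, 0.188 and 0.113, and 3 counts, the floor that a count of 0 allows, amount to 0.0520, 0.190, 0.141 and 0.170 TPM. QPRT was thus at or near the limit of detection in all 4 libraries. NADSYN1 minus QPRT was 6.29 ± 0.45 (SD, n = 4) on the log2(TPM + 1) scale (exact permutation test, p = 0.125, adjusted p = 0.15), with NADSYN1 higher in 4 of 4 replicates. In replicate 1, the deepest, NADSYN1 had 1240 times the reads of QPRT per kilobase (95% Clopper-Pearson interval 569 to 3380). This ratio used the deposited lengths, and with exon unions NADSYN1 minus QPRT was 4.26 ± 0.45 (SD, n = 4).

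Of the 9 genes listed for the tryptophan route, 3 were detected, against 63.3% of all protein-coding genes. AFMID, the formamidase, was steady at 14.1 to 19.2 TPM. KMO, the monooxygenase that makes 3-hydroxykynurenine, had 0.0469, 5.63, 4.80 and 10.3 TPM in replicates 1 to 4. IDO1, the interferon-induced dioxygenase of the first step, had 0.0852, 6.54, 3.63 and 1.81 TPM. Both were at the bottom in replicate 1, where KMO had 6 counts and IDO1 4. KYNU, the kynureninase, had a mean of 0.481 ± 0.462 TPM (SD, n = 4) and was above 1 TPM in replicate 1 alone. HAAO, which makes quinolinate's precursor, had 0 counts in every library, which allows up to 0.0962 TPM in replicate 1 and up to 0.351 TPM in replicate 2. TDO2, IDO2 and ACMSD, the last of which diverts the intermediate from NAD, each had 3 counts or fewer in every library.

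**Figure D2:**
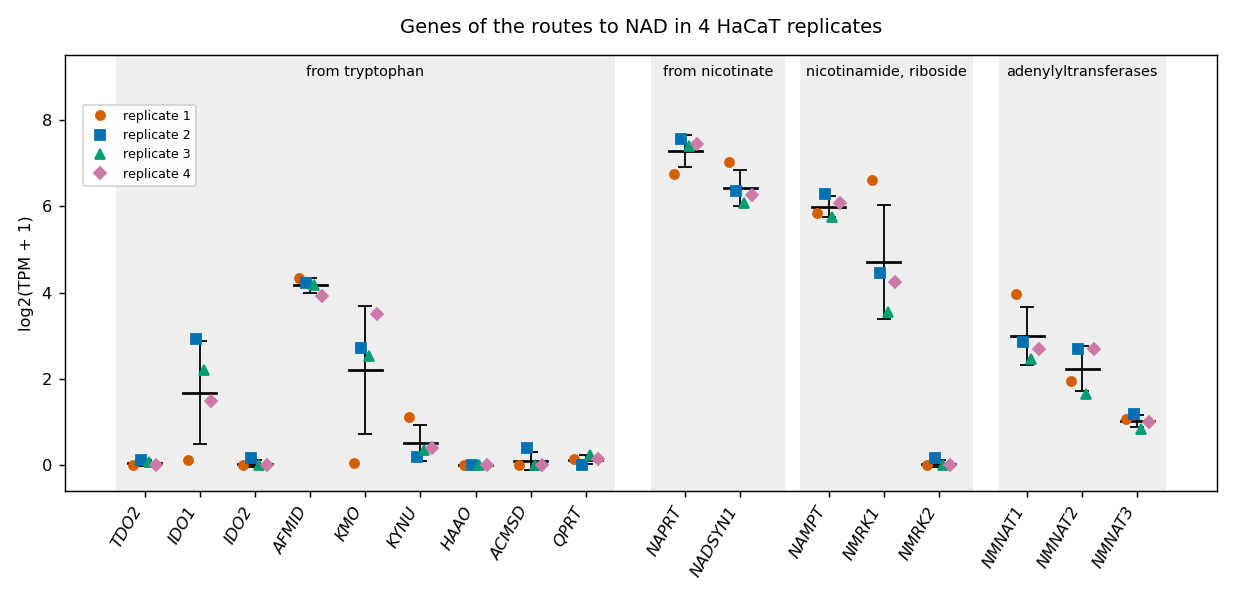
Genes of the routes to NAD by route on the log2(TPM + 1) scale (vertical axis), with points for 4 replicates, the mean (horizontal bar) and SD (error bar). HAAO and QPRT lie at or near 0 in each replicate, whereas NAPRT, NADSYN1 and NAMPT lie above the other genes of the routes in the mean.

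The NMNAT enzymes, which add the adenylyl group, had less RNA than NAPRT, NAMPT and NMRK1 before them and more than QPRT and NMRK2. NMNAT1, the nuclear form (chromosome 1, 10002981 to 10045556), had 14.6, 6.23, 4.53 and 5.50 TPM in replicates 1 to 4, a mean of 7.70 ± 4.62 TPM (SD, n = 4). NMNAT2, known chiefly as the axonal survival enzyme (chromosome 1, 183217372 to 183387634, minus strand), had 2.85, 5.43, 2.14 and 5.45 TPM, a mean of 3.97 ± 1.72 TPM (SD, n = 4). NMNAT3, the mitochondrial form (chromosome 3, 139279022 to 139396892, minus strand), had 1.11, 1.29, 0.793 and 1.00 TPM, a mean of 1.05 ± 0.207 TPM (SD, n = 4) from 20 to 76 counts. NMNAT3 thus lay on the detection mark itself, and NMNAT1 in replicate 1 lay apart from the other replicates. The ranges of NMNAT1 and NMNAT2 overlapped.

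NMNAT1 exceeded NMNAT3 in 4 of 4 replicates, by 1.97 ± 0.61 (SD, n = 4) on the log2(TPM + 1) scale (exact permutation test, p = 0.125, adjusted p = 0.15). Per kilobase the ratio of NMNAT1 to NMNAT3 was 13.1 (95% Clopper-Pearson interval 10.4 to 16.7) in replicate 1. Replicate 2 had a ratio of 4.84 (3.15 to 7.75), replicate 3 of 5.71 (3.59 to 9.58) and replicate 4 of 5.47 (3.47 to 9.06). The intervals of replicates 2 to 4 overlapped one another, and that of replicate 1 overlapped none. Without replicate 1 the difference was 1.66 ± 0.04 (SD, n = 3). NMNAT1 minus NMNAT2 was 0.75 ± 0.91 (SD, n = 4), within the spread, and in replicate 4 they differed by 0.01. NMNAT1 made up 78.6% of the summed TPM of the 3 genes in replicate 1 and 46.0% to 60.7% in the others, and NMNAT2 15.38% and 28.7% to 45.6%. The summed TPM of the entry enzymes was 13.99 to 30.8 times that of the 3 NMNAT genes. The span of NMNAT1 overlaps that of LZIC on the opposite strand, which had 3111 counts in replicate 1 and 469 to 701 in the others. The span of NMNAT3 overlaps that of the lncRNA LOC100507291 on the opposite strand, with 170 and 7 to 18 counts. Whether exons overlap, and so whether reads of these partners could be mixed without strand, was not examined.

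NADK, the cytosolic NAD kinase (chromosome 1, 1682671 to 1711508, minus strand), had 14.9, 50.0, 39.3 and 35.4 TPM in replicates 1 to 4. The mean was 34.9 ± 14.7 TPM (SD, n = 4), with replicate 1 below the others. NADK2, the mitochondrial kinase, had 11.7, 11.1, 7.96 and 11.5 TPM. NADK was above NADK2 in 4 of 4 replicates, by 1.53 ± 0.84 (SD, n = 4) on the log2(TPM + 1) scale (exact permutation test, p = 0.125, adjusted p = 0.15). The reads of NADK per kilobase were 1.28 times those of NADK2 in replicate 1 (95% Clopper-Pearson interval 1.19 to 1.38). Replicate 2 had a ratio of 4.51 (3.98 to 5.12), replicate 3 of 4.93 (4.35 to 5.61) and replicate 4 of 3.09 (2.74 to 3.49). The intervals of replicates 2 and 3 overlapped each other, and those of replicates 1 and 4 overlapped none. All 8 genes listed for NADP formation and reduction were detected, against 63.3% of all protein-coding genes. PGD, of the pentose phosphate pathway, had 171 to 248 TPM. IDH1, the cytosolic isocitrate dehydrogenase, had 267 TPM in replicate 1 and 89.8 to 127 TPM in the others. Replicate 1 was thus the lowest for PGD and the highest for IDH1.

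NNMT, which methylates nicotinamide with S-adenosylmethionine (chromosome 11, 114166535 to 114183238), had 0.600, 5.34, 2.75 and 6.46 TPM in replicates 1 to 4, from 23, 56, 39 and 76 counts. The mean was 3.79 ± 2.63 TPM (SD, n = 4), the widest relative spread among the 7 detected genes. Replicate 1 was the lowest and the only one under 1 TPM. NNMT minus NAMPT was -3.95 ± 0.86 (SD, n = 4) on the log2(TPM + 1) scale (exact permutation test, p = 0.125, adjusted p = 0.15). Per kilobase, NNMT had 0.0106 times the reads of NAMPT in replicate 1 (95% Clopper-Pearson interval 0.00673 to 0.0160) and 0.0523 to 0.0973 times in the others. NNMT is abundant in fibroblasts, so the 7 fibroblast markers were read beside it, and 2 of them had a mean TPM above 1. Their summed level was 5.20 to 9.602 TPM. COL1A1, the main fibrillar collagen gene, had 0.500, 4.92, 1.88 and 8.54 TPM in replicates 1 to 4, the same order of replicates as NNMT. LUM had 3.35, 0, 1.21 and 0.381 TPM, another order. COL1A2 and COL3A1 were highest in replicate 3, with 2.10 and 2.72 TPM, and DCN in replicate 1, with 1.63 TPM, so that none of these followed NNMT, while PDGFRA and THY1 had 6 counts or fewer in replicates 2 to 4 and 7 or fewer in replicate 1. The part of such cells in the NNMT values was not tested, and in bulk RNA fewer cells of a type cannot be told apart from less RNA per cell. AOX1, which oxidises the methylated product, had a mean of 1.26 ± 0.653 TPM (SD, n = 4). The genes that supply and clear the methyl donor were far higher, with AHCY at 240 ± 71.3, MAT2A at 133 ± 45.1 and MAT2B at 73.9 ± 26.2 TPM (SD, n = 4).

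CD38 (chromosome 4, 15779888 to 15854866) had 9 counts in replicate 1 and 0 in replicates 2 to 4. BST1, its neighbour on the chromosome (15704573 to 15733796) and its paralogue, had 4 counts in replicate 1 and 0 in the others. A count of 0 allows up to 0.0792 TPM of CD38 and 0.305 TPM of BST1 in replicate 2. Neither gene could therefore be shown at this depth outside replicate 1, which had 0.0650 TPM of CD38 and 0.111 TPM of BST1. BST1 minus CD38 was 0.015 ± 0.031 (SD, n = 4) on the log2(TPM + 1) scale (exact permutation test, p = 1, adjusted p = 1), and the ratio per kilobase in replicate 1 was 1.71 (95% Clopper-Pearson interval 0.385 to 6.13). With 0 counts of both genes in replicates 2 to 4, the permutation p was fixed whatever replicate 1 held, so it does not show that they are equal. Both genes are known chiefly from blood and stromal cells. Of 7 leukocyte markers, MS4A1 had no count, and PTPRC, CD3E and LYZ, at 0.354 TPM or less, had reads in replicate 1 and none in the others. ITGAM had 0.0347 to 0.634 TPM, and CD14 was the one marker detected, at 3.03 to 8.92 TPM. The part of leukocytes in the CD38 and BST1 counts was not tested.

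**Figure D3:**
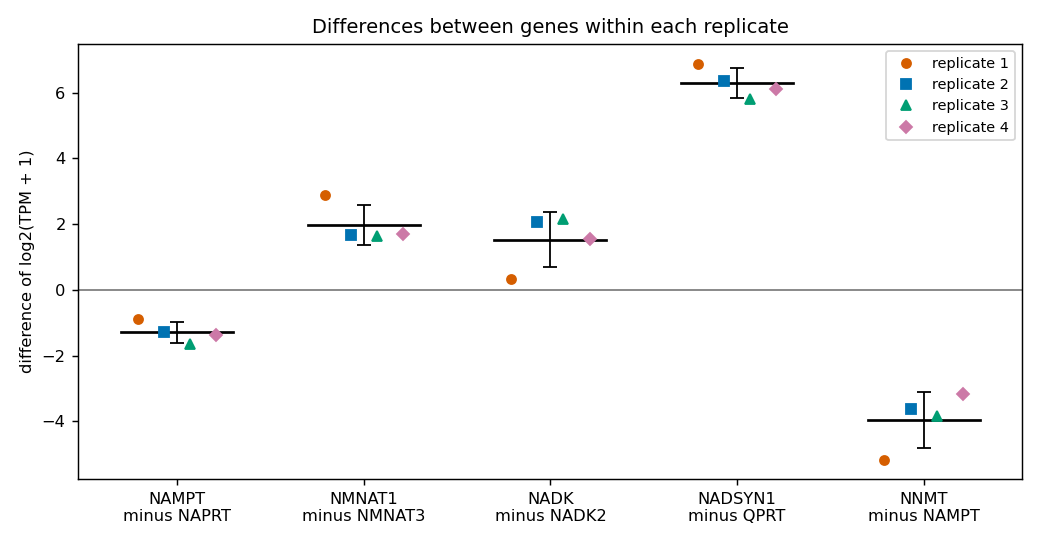
Difference of log2(TPM + 1) (vertical axis) between the genes of 5 contrasts in each of 4 replicates (points), with the mean (horizontal bar) and SD (error bar). In each contrast all 4 replicates lie on the same side of 0, and replicate 1 is at one end of the range.

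SARM1, the NAD hydrolase of axon degeneration, was the one detected gene of its kind, with 2.16, 15.2, 11.3 and 12.8 TPM in replicates 1 to 4. Among the listed classes of NAD-consuming enzymes, the PARP family had the highest summed TPM, a sum that grows with the number of genes. The median of the gene means was 38.4 TPM for the PARP family and 20.2 TPM for the sirtuins. Its 16 genes summed to 579, 823, 577 and 606 TPM, and 15 of them were detected, against 63.3% of all protein-coding genes. The 7 sirtuins summed to 163, 152, 174 and 153 TPM, and CD38, BST1 and SARM1 together to 2.34 to 15.2 TPM. The PARP sum was 3.31 to 5.40 times the sirtuin sum, so the order of these sums was shared by all 4 replicates. PARP1, the main enzyme of the DNA damage response, had a mean of 148 ± 39.7 TPM (SD, n = 4) and took 17.6% to 32.4% of the PARP sum. NAMPT was 1.20, 1.38, 0.657 and 1.19 times SIRT7 in TPM.

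PARP9, PARP10, PARP12 and PARP14, PARP proteins known as interferon-induced, differed between the replicates. PARP12 had 10.3, 89.6, 76.7 and 22.4 TPM in replicates 1 to 4, and PARP14 had 53.0, 149, 65.7 and 43.5 TPM. PARP9 had 25.4, 72.1, 44.4 and 20.2 TPM and PARP10 19.4, 70.3, 60.5 and 32.9 TPM. The median level of 15 interferon-induced genes was 11.42, 154, 183 and 10.4 TPM in replicates 1 to 4, and replicates 2 and 3 were above replicates 1 and 4 in each of these 4 PARP genes and in this median. IDO1 and NADK were also higher in replicates 2 and 3 than in the others. This order was found in 1 of the 7 detected members, in 11 of the 51 detected pathway genes and in 14.9% of all detected protein-coding genes. The other pathway genes with it were AHCY, MAT2A, SIRT6, NT5E and AOX1, which are not known chiefly as interferon-induced. No other detected PARP gene had it. TIPARP had 87.9, 51.8, 28.5 and 43.7 TPM in replicates 1 to 4, and PARP11 had 3.03, 1.54, 1.43 and 2.32 TPM. Both were thus highest in replicate 1 and lowest in replicate 3. The part of interferon in these levels was not tested. PARP15 alone of the family was not detected, with 1 count or fewer in each library.

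**Figure D4:**
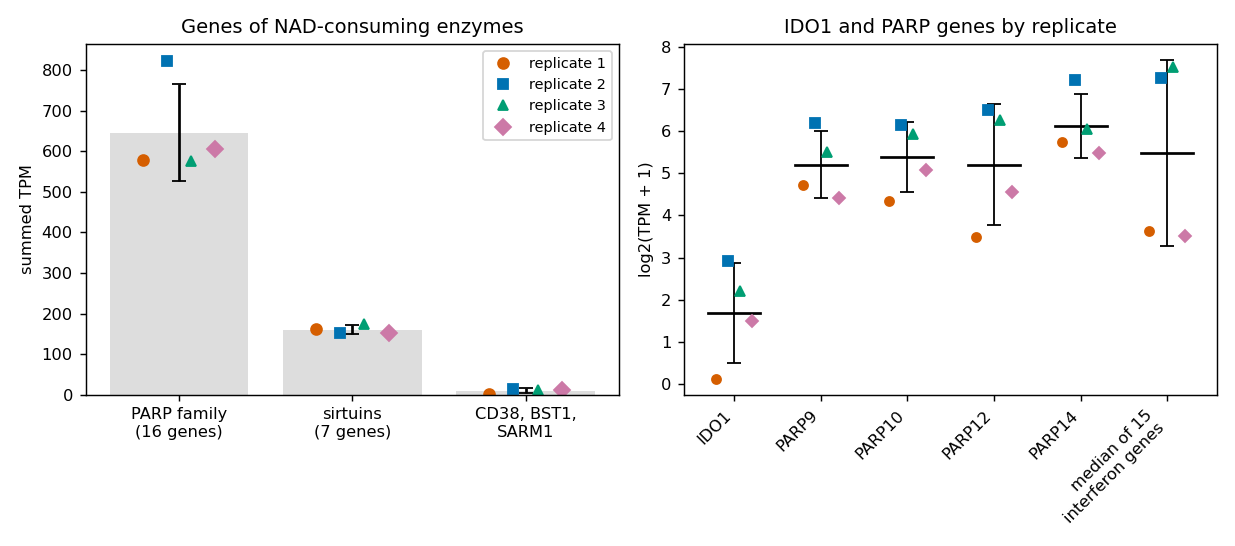
Left, summed TPM (vertical axis) of 3 classes of NAD-consuming enzymes, with bars for the mean, error bars for the SD and points for 4 replicates. Right, log2(TPM + 1) of IDO1, 4 PARP genes and the median TPM of 15 interferon-induced genes, with the mean and SD; replicates 2 and 3 are above replicates 1 and 4 in each.

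Replicate 1 differed from the others in both directions among the members. On the log2(TPM + 1) scale the difference of replicate 1 from the mean of the others was 1.29 for NMNAT1, 0.80 for NADSYN1, -1.40 for NADK and -1.81 for NNMT, and it was between -0.40 and 0.07 for NAMPT, NMNAT2 and NMNAT3. The median over all detected protein-coding genes was 0.03. With TPM over all genes this median was -1.27, and the differences were -0.082 for NMNAT1, -0.71 for NADSYN1, -2.75 for NADK and -2.12 for NNMT, so that NMNAT1 and NADSYN1 were above that median and NADK and NNMT below it. Across 11889 of them this difference had a Spearman correlation of -0.51 with GC content, as a description across genes. The GC content of the longest coding transcript was 56.5% for NADK and 46.0% for NMNAT1, against a median of 49.1%, and NADSYN1, at 58.7%, went the other way. NAMPT had the lowest GC content of the 10 genes, 36.3%, and a difference of -0.19, also against the correlation. The part of GC content in these values was not tested. By Dixon's 95% limit for 4 values, NMNAT1 was the single one of the 7 detected members with a replicate apart, while 9.82% of all detected protein-coding genes had one. Replicate 1 was apart as the highest, as for NMNAT1, in 6.38% of them and as the lowest in 1.66%. With TPM over all genes NMNAT1 had 4.504, 5.52, 3.96 and 5.11 TPM, and no replicate was apart in any of the 7.

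Of the 9 steps in the order of the 10 means, 4 exceeded the SD of the difference between replicates. These were NAMPT over NADK with 0.94 ± 0.64, NADK over NMNAT1 with 2.05 ± 1.35, NNMT over NMNAT3 with 1.01 ± 1.00 and NMNAT3 over QPRT with 0.89 ± 0.25 (log2(TPM + 1), SD, n = 4). The steps from NADSYN1 to NAMPT, from NMNAT1 to NMNAT2, from NMNAT2 to NNMT, from QPRT to BST1 and from BST1 to CD38 did not. In other settings, NADSYN1 over NAMPT exceeded the SD without replicate 1 (0.19 ± 0.13) or 2 (0.56 ± 0.54). NMNAT1 over NMNAT2 did so without replicate 4 (1.0 ± 0.94) and with exon unions (1.005 ± 0.952). So did NMNAT2 over NNMT with CPM (1.69 ± 0.59), and QPRT over BST1 without replicate 1 (0.134 ± 0.125) or 2 (0.131 ± 0.130). NNMT over NMNAT3 was reversed in replicate 1 (-0.40), and it fell within the SD without replicate 2 (0.85 ± 1.16), 3 (0.99 ± 1.22) or 4 (0.71 ± 0.99). It was also within the SD with CPM (0.48 ± 0.87) and with a pseudocount of 0.1 (1.355 ± 1.482). NAMPT over NADK was within the SD with exon unions (0.37 ± 0.64). NADK over NMNAT1 and NMNAT3 over QPRT exceeded it in every setting run. NADK and NMNAT1 differed by 0.04 in replicate 1 and by 2.49 to 2.86 in the others.

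The RNA for transport and for NAD breakdown outside the cell was measured beside these genes. Of 8 listed genes, 5 were detected, near the 63.3% of all protein-coding genes that passed the same mark. NT5E (CD73), the surface enzyme that turns the mononucleotide into nicotinamide riboside, had 22.7, 109, 58.3 and 36.6 TPM in replicates 1 to 4. SLC29A1, a nucleoside transporter, had 11.8, 87.6, 56.6 and 64.9 TPM. NUDT12, a hydrolase of NADH and of NAD-capped RNA, had 28.5, 5.54, 4.23 and 11.2 TPM. Replicate 1 was the lowest for NT5E and SLC29A1 and the highest for NUDT12. SLC5A8 had no count, and ENPP1 had 1 count or fewer in each library. Over the lists for the whole pathway, 51 of 64 genes were detected, against 63.3% of all protein-coding genes. Among them were 7 of the 8 for salvage and the nicotinate route, 5 of 5 for nicotinamide methylation and 7 of 7 sirtuins.

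The pattern of each detected member over the 4 replicates was also set against the 50 other detected genes of the pathway lists, by the root mean square difference of log2(TPM + 1) after centring each gene on its mean. NAMPT was nearest to PARP8 (0.04) and then PARP2 (0.13), and NMNAT1 to SIRT1 (0.04) and then SIRT5 (0.17). NADSYN1 was nearest to IDH2 (0.11), NMNAT3 to PARP6 (0.11), NNMT to SLC12A8 (0.17), NADK to AOX1 (0.24) and NMNAT2 to PARP8 (0.25). With 4 replicates, of which replicate 1 differs from the rest across many genes, these distances are descriptions.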

How the data were processed

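Libraries of 4 untreated HaCaT replicates were made from 1 μg of total RNA each; counted reads per replicate are given in the report. The authors deposited raw read counts per gene with gene lengths, and RPKM for replicates 1 and 2 or TPM for replicates 3 and 4. Recomputing the deposited RPKM and TPM from the counts gave differences of at most 6.66e-05%. The submitters' processing notes name hg19, HISAT2, HISAT, TopHat2 and Bowtie2; versions, annotation, counting program and strand setting are not given in the sources used here. TPM was computed over protein-coding genes in each replicate, and log2 values used a pseudocount of 1. Between any 2 replicates, at most 0.608% of detected genes had identical counts. Contrasts were tested with exact sign-flip permutation tests, adjusted by Benjamini-Hochberg over 6 contrasts. Read ratios have 95% Clopper-Pearson intervals and the floor is 3 counts; both cover counting error only. The members, 8 pathway lists and markers were chosen with earlier results of these data known. From each list the 4 genes with the highest mean TPM, contrast partners and genes with a replicate apart could be named; the rest of those named were chosen after their values were seen, and some listed genes are not reported here. GC content and exon unions came from GENCODE release 29, matched by symbol for 97.7% of genes. The scripts were tested on simulated data. Alternatives were TMM factors (edgeR 4.0.16), DESeq2 1.42.0 size factors, TPM over all genes, CPM, another pseudocount, other detection rules and leaving out each replicate. R 4.3.3 and Python 3.11.15 were used, with SciPy 1.17.1, pandas 2.3.3, NumPy 2.4.6 and matplotlib 3.10.9.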

Additional observations from a re-analysis of the deposited data

Results flagged for a closer look

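In 64 sets of 4 values from genes and lists of NAD metabolism, 7 had a replicate apart from the others. Its gap, as a share of the range, exceeded Dixon's 95% limit for 4 values. Chance flags about 1 set in 20, while 9.82% of all detected protein-coding genes in these libraries passed the same limit. The sets are not independent, since sums and differences share genes. NMNAT1 was apart in replicate 1 with a gap of 0.831 of its range (14.6 against 4.53 to 6.23 TPM), and so was NMNAT1 minus NMNAT3 with a gap of 0.943 (2.88 against 1.63 to 1.70 on the log2(TPM + 1) scale). NMRK1, the nicotinamide riboside kinase, was apart in replicate 1 with a gap of 0.881 (96.7 against 10.7 to 20.9 TPM). NADK2 was apart in replicate 3 as the lowest, with a gap of 0.845 (7.96 against 11.1 to 11.7 TPM). ME1, the cytosolic malic enzyme, was apart in replicate 4 with a gap of 0.885 (43.1 against 20.4 to 23.0 TPM), and the summed TPM for NADP formation and reduction with a gap of 0.842 (773 against 618 to 643). The summed TPM of the PARP family was apart in replicate 2 with a gap of 0.882 (823 against 577 to 606). Of the 51 detected pathway genes, 4 had a replicate apart, or 7.84%, near the 9.82% of all detected protein-coding genes. With TPM over all genes none of these 7 sets passed the limit, with gaps of 0.348 for NMNAT1, 0.774 for NMNAT1 minus NMNAT3, 0.553 for NMRK1, 0.475 for NADK2, 0.587 for ME1, 0.659 for the NADP sum and 0.591 for the PARP sum.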

How the results depend on the processing

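In the alternatives run, 2 values of the 6 contrasts were reversed, and BST1 minus CD38 was 0 without replicate 1. Scaling a whole library hardly changes a difference between genes within it. Leaving out a replicate cannot turn a contrast whose 4 replicates share a sign. The number of reversals is therefore no measure of stability. Both reversals came from CPM without length correction, where NAMPT minus NAPRT was 0.12 (p = 0.625, exact permutation test) against -1.30, and BST1 minus CD38 was -0.029 against 0.015. No contrast could pass 0.05 in this design, so the p-values say nothing about stability. The number of detected members was 8 with a mean TPM above 0.1, 10 with any count, 5 with more than 1 TPM in all 4 replicates and 6 to 7 on leaving out a replicate. Mean levels moved by more than 1 SD in 10 of 90 cases, all of them with TPM over all genes, CPM or exon unions. Leaving out 1 of 4 replicates cannot move a mean that far, so those cases are no evidence of stability. With exon unions, NADSYN1 was 20.9 TPM and NMNAT3 0.359 TPM. NADSYN1 minus QPRT was then 4.26 against 6.29, and NMNAT1 minus NMNAT3 was 3.08 against 1.97. The order of NADSYN1 and NAMPT also turned with CPM (-0.46 ± 0.51), and that of NMNAT2 and NNMT without replicate 1 (-0.15). No comparison between conditions was possible because there is a single condition, and the contrasts paired genes within each replicate. Depth limits QPRT, CD38 and BST1, each with under 10 counts in every library.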
